A study of Mus musculus with 12 samples.

Results

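The comparison described here sets blood of mice without nuclear myosin 1 (NM1 KO) against blood of wild-type mice (NM1 WT). It holds the 6 libraries labelled blood of the 12 in the series: WT 01, WT 03 and WT 04 against KO 02, KO 03 and KO 04, named by the numbers in their labels. The other 6 libraries are labelled spleen. Members were taken by the tissue label, and the fit carries a term for whether the 4 adult globin genes Hba-a1, Hba-a2, Hbb-bs and Hbb-bt hold over 25% of a library's counts. Globin genes were left out of all other values.

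All mice were of the C57/Bl6 strain, 8 months old and of 25 to 35 g. The labels name no further allele or agent in either group, and how the NM1 allele was made is not given in the sources used here. Blood was drawn from the submandibular vein into RNAzol, and libraries were made from 500 ng of total RNA. The labels do not say that every library came from its own mouse, so p-values measure the spread between these libraries, which may be technical.

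NM1 is the nuclear form of Myo1c, an unconventional class I myosin that moves along actin. It binds nuclear actin and RNA polymerases and takes part in ribosomal RNA transcription and in the chromatin changes that open genes. Whole blood RNA comes from reticulocytes, platelets and leukocytes. In mice, lymphocytes outnumber neutrophils, the short-lived granulocytes that leave the marrow with ready-made granules and kill microbes. The series title names platelet activation and immune response, so genes of platelets and leukocytes were of first interest.

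The 6 libraries fell into a globin-rich and a globin-poor kind. Globin took 48.9% of counts in WT 01, 49.3% in KO 02 and 52.1% in KO 03, and 5.89%, 5.07% and 4.89% in WT 03, WT 04 and KO 04. The share was 35.4% ± 26.5 in KO and 19.9% ± 25.0 in WT libraries (SD, n = 3 each, exact two-sided permutation p = 0.5, where 0.1 is the smallest possible). Total counts were 11.03 to 11.4 M in the globin-rich kind and 23.1 to 24.7 M in the globin-poor kind, so kind and depth cannot be told apart. The 3 globin-poor libraries go against their label. Vcam1, an adhesion molecule of spleen red pulp macrophages, lay at 226, 287 and 159 CPM in WT 03, WT 04 and KO 04 and at 0 to 2.01 CPM in the globin-rich libraries. Col1a1 of connective tissue lay at 51.4 to 68.3 against 0.402 to 0.845 CPM, and Jchain of plasma cells at 314 to 400.0 against 2.39 to 4.44 CPM. KO 04 also carried pancreas genes, with Cpb1 at 33.1 CPM against at most 4.87 CPM elsewhere. CPM here means counts per M (mega) counts outside globin, scaled by the trimmed mean of M-values (TMM). Since the only globin-rich WT library is WT 01 and the only globin-poor KO library is KO 04, each genotype difference within a kind rests on 1 library on 1 side. Medians of the lists described at length are given for both kinds and within each, the globin-rich values being those without the libraries that go against the label. Whether the labels match the tissue sampled was not tested.

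Libraries of different kinds lay farther apart than libraries of one kind. The root mean square log2 difference over genes was 1.93 to 2.12 between libraries of different kinds. Within kinds, WT 01 was closest to KO 02 (0.940) and WT 03 closest to KO 04 (0.543), so in each kind the nearest pair crossed genotype. KO 03 stood apart from both other globin-rich libraries, at 1.83 from WT 01 and 1.66 from KO 02. In KO 03, 10474 genes reached 10 counts, against 13836 in WT 01 and 12588 in KO 02. Olfactory genes, before TMM scaling, summed to 132 CPM in WT 01 and 115 CPM in KO 02, but to 7.51 CPM in KO 03. WT 03 held 4.87 CPM of them, WT 04 9.98 CPM and KO 04 4.54 CPM. The only globin-rich WT library, WT 01, was thus the highest. Whether this bears on the globin-rich fold changes was not tested.

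Myo1c (chr11:75650504-75673910, GRCm38, + strand), the gene that encodes NM1, did not separate the genotypes. Its level was 209 CPM in WT 01 against 236 and 247 CPM in KO 02 and KO 03, and 131 and 155 CPM in WT 03 and WT 04 against 121 CPM in KO 04. The log2 fold change was -0.02 ± 0.21 (SE). Counts per gene pool NM1 with the other Myo1c isoforms, so they do not check the genotype labels. Of the list of myosins and actin-binding genes, 9 of 20 tested lay above 0 and 11 below, with a median of -0.03. Myo1f and Myo1g, leukocyte class I myosins, stood at -0.21 ± 0.19 and 0.09 ± 0.21.

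No gene passed the test in the 6 libraries. Of 16959 genes tested, 0 (0%) reached an adjusted p under 0.05 in edgeR's quasi-likelihood test with Benjamini-Hochberg adjustment, and all adjusted p were 1. Before adjustment, 353 genes (2.08%) had p under 0.05, with 109 (0.643%) higher in KO and 244 (1.44%) lower. DESeq2 and limma-voom called 0 genes as well, with 284 and 500 genes under 0.05 before adjustment. Effects in one kind bore little relation to those in the other: across genes, which are not independent replicates, r was 0.06, and 54.3% of genes had the same sign in both kinds. The KO effect differed between the kinds for 1 gene (0.0059%), Gm26917. The values below are therefore differences that did not pass the test, given with their spread.

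The group that stood lowest in the blood-labelled KO libraries was the neutrophil list. Of its 35 members, all tested, 34 had a log2 fold change below 0 (51.8% of all tested genes) and the median was -0.73, beside -0.02 over all genes. It was -0.37 with genotype as the only term. The median was -0.75 in the globin-rich libraries and -0.71 in the globin-poor ones. The SD between replicates of the list's median log2 level was 0.42. It was taken only from KO 02 with KO 03 and from WT 03 with WT 04. In 24 members every KO library lay below every WT library within both kinds, against 11.3% of all tested genes, and in 0 members did it lie above (10.3%). Before adjustment, 17 of the 35 had p under 0.05, all lower (1.44% of all genes), and none was called. In bulk RNA, fewer neutrophils, less of these RNAs per neutrophil and a different tissue make-up of the libraries cannot be told apart.

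Pair by pair, KO 02 lay below WT 01 in 30 of the 35 members and KO 03 in 33. KO 04 lay below WT 03 in 33 and below WT 04 in 27. Summed over the list, the level was 3030 CPM in WT 01 against 1696 and 2176 CPM in KO 02 and KO 03. In the globin-poor kind the sum was 1278 and 898 CPM in WT 03 and WT 04 against 736 CPM in KO 04. The genotypes did not overlap within either kind, but KO 03 and KO 02 lay above all globin-poor WT libraries, so across kinds they did.

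**Figure D1:**
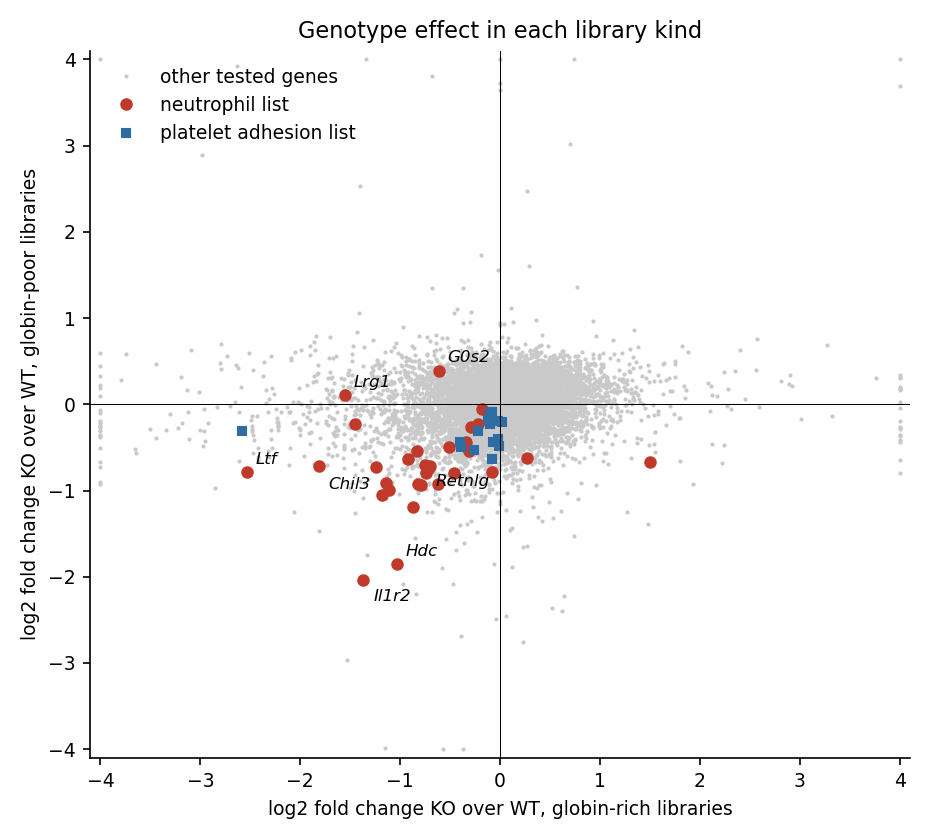
Log2 fold change of KO over WT in the globin-rich (x axis) and globin-poor (y axis) libraries for the 10511 tested genes that averaged 5 CPM or more, with 31 neutrophil members in red and platelet adhesion members in blue. Genes beyond 4 on either axis are drawn at the edge; most red points lie below 0 on both axes, while the grey points spread to all sides of 0 (r = 0.06 over all 16959 genes).

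Promoters are shown for 6 members whose KO libraries lay below WT in both kinds, so that the sequence before each start can be read beside the values that follow. Each is the 250 bases before the transcription start in RefSeq's table for GRCm38.p6, written 5′ to 3′ on the gene's strand. Capitals mark matches to TTGCNNAA, the core of sites for C/EBP factors that drive granulocyte genes, or to GAGGAAGT, a core for the myeloid factor PU.1, on either strand. The motifs do not overlap each other in these windows.
Hdc (chr2:126618679-126618928, - strand): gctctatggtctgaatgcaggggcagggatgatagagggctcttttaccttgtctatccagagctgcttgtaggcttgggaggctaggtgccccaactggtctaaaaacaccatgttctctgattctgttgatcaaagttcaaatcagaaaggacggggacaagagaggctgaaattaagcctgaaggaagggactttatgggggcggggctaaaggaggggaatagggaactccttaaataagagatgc
Chil3 (chr3:106167565-106167814, - strand): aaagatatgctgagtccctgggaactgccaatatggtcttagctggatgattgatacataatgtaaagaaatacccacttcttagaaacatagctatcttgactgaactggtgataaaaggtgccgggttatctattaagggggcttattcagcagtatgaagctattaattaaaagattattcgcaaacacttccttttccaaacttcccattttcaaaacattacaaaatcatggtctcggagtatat
Retnlg (chr16:48872358-48872607, + strand): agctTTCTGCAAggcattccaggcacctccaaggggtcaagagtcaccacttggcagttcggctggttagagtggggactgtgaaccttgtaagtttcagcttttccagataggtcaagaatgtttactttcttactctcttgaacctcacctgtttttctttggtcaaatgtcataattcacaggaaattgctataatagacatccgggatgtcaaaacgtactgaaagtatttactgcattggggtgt
S100a8 (chr3:90668821-90669070, + strand): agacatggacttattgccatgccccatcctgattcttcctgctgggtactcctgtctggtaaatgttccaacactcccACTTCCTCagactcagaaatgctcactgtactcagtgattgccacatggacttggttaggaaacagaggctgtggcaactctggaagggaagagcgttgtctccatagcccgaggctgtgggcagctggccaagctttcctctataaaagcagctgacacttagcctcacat
S100a9 (chr3:90695722-90695971, - strand): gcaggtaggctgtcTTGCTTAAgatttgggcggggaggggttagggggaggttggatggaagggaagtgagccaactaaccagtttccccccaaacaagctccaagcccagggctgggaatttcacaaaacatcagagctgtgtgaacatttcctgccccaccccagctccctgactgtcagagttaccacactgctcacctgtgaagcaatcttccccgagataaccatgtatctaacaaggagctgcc
Mmp8 (chr9:7558179-7558428, + strand): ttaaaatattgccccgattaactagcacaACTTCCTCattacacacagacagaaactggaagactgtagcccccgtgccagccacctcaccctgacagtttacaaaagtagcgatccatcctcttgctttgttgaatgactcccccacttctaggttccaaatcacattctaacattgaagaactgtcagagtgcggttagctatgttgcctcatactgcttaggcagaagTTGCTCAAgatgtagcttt

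Over all 32851 windows of this length in the table, 9.56% held TTGCNNAA and 2.44% held GAGGAAGT. For the neutrophil list, 33 of 35 genes matched the table with 34 windows, of which 8 held the first motif and 7 the second. The windows of Ly6g overlap and hold the same GAGGAAGT site, which is thus counted more than once. Retnlg, S100a9 and Mmp8 held TTGCNNAA, S100a8 and Mmp8 held GAGGAAGT, and neither string was in these windows of Hdc and Chil3. These are matches of letters and say nothing of binding.

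The members with the smallest p were an enzyme, a secreted lectin, a decoy receptor and a secreted granule protein. Hdc, which makes histamine from histidine in granulocytes and mast cells, lay at 42.2 CPM in WT 01 against 18.0 and 23.6 CPM in KO 02 and KO 03. In the globin-poor kind it lay at 18.5 and 23.6 CPM in WT 03 and WT 04 against 5.82 CPM in KO 04. Its log2 fold change was -1.45 ± 0.28 (unadjusted p = 0.00014 and adjusted p = 1 in edgeR's quasi-likelihood test), with -1.03 in the globin-rich and -1.86 in the globin-poor libraries.

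Chil3 (Ym1), a chitinase-like lectin of neutrophil secondary granules and of classical monocytes, lay at 114 CPM in WT 01 against 38.0 and 62.9 CPM in KO 02 and KO 03. The globin-poor values were 28.4 and 21.7 CPM in the WT libraries and 12.1 CPM in KO 04. KO was below WT in both kinds, at -1.12 ± 0.23 in the fit of both, -1.18 globin-rich and -1.05 globin-poor. Il1r2, the decoy receptor that binds interleukin 1 without signalling, lay at 14.3 CPM in WT 01 against 4.01 and 7.16 CPM in the globin-rich KO libraries. It lay at 11.005 and 6.89 CPM in WT 03 and WT 04 against 2.16 CPM in KO 04. The fold change was -1.73 ± 0.42, and the lowest count behind these values was 19 reads, in KO 02. Retnlg, a resistin-like secreted protein of the gelatinase granule, lay at 105 CPM in WT 01 against 62.8 and 62.3 CPM in KO 02 and KO 03. WT 03 and WT 04 held 37.9 and 35.7 CPM of it, KO 04 22.5 CPM. Replicates agreed closely here and the genotypes did not overlap within a kind, at -0.73 ± 0.18.

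**Figure D2:**
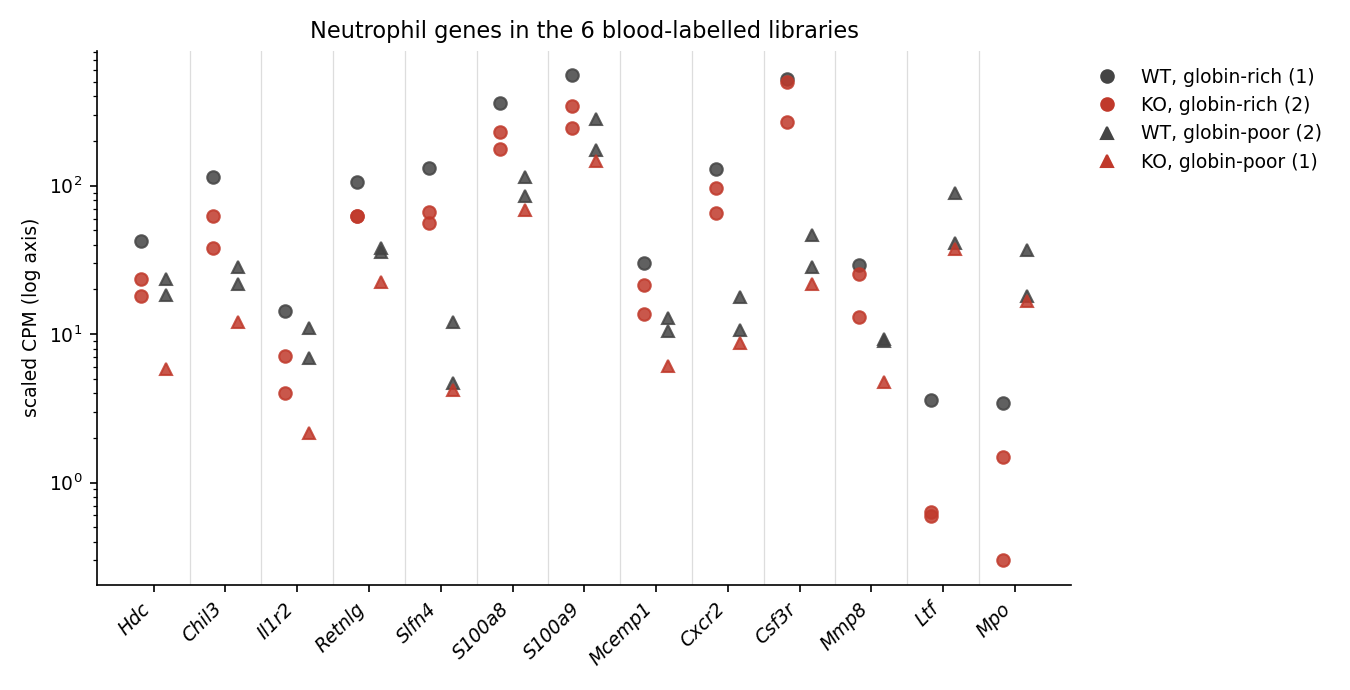
Scaled CPM (log axis) of 13 neutrophil genes in each of the 6 libraries, WT in dark grey and KO in red, circles for the globin-rich and triangles for the globin-poor kind; levels compare between libraries, not between genes. The genes shown are all from the 24 of 35 members whose KO libraries lay below WT in both kinds. Every red point thus lies below the grey ones of its kind by that choice, Hdc from 42.2 CPM in WT 01 to 5.82 CPM in KO 04.

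Receptors of mature neutrophils had 10 of 10 members below 0 with a median of -0.81. Of these, 9 were lower without overlap in both kinds (11.3% of all genes). Cxcr2, the chemokine receptor that draws neutrophils out of the marrow, lay at 130.5 CPM in WT 01 against 65.1 and 96.1 CPM in KO 02 and KO 03. Its globin-poor values were 10.7 and 17.9 CPM against 8.76 CPM in KO 04. The fold change was -0.71 ± 0.24. Csf3r, the receptor of granulocyte colony-stimulating factor, lay at 527 CPM in WT 01 against 269.8 and 497 CPM, and at 28.3 and 46.8 CPM in WT 03 and WT 04 against 21.6 CPM. Here KO 03 stood close to WT 01, and the fold change was -0.63 ± 0.28. The C-type lectins Clec4d and Clec4e, which sense microbial glycolipids, stood at -0.73 ± 0.28 and -1.02 ± 0.35. Trem1, which amplifies inflammatory signals, stood at -1.02 ± 0.40, Mcemp1 at -0.87 ± 0.28, and the formyl peptide receptors Fpr1 and Fpr2 at -0.77 ± 0.44 and -0.80 ± 0.46. Ly6g was near the detection limit in the globin-rich kind, at 0 to 0.603 CPM.

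Cytosolic proteins had 8 of 9 members below 0 and a median of -0.69. S100a8 and S100a9 form calprotectin, the most abundant protein of the neutrophil cytosol. S100a8 lay at 362 CPM in WT 01 against 176 and 232 CPM in KO 02 and KO 03, and at 115 and 84.8 CPM in WT 03 and WT 04 against 68.4 CPM in KO 04. S100a9 lay at 557 CPM against 244 and 346 CPM, and at 282 and 174 CPM against 147 CPM. Their fold changes were alike, at -0.69 ± 0.21 and -0.78 ± 0.24. Slfn4, a myeloid Schlafen gene, lay at 132 CPM in WT 01 against 66.3 and 56.4 CPM, and at 4.67 and 12.1 CPM against 4.22 CPM, at -1.06 ± 0.30. Padi4, which citrullinates histones during extracellular trap release, stood at -0.50 ± 0.25. Lrg1 and G0s2 went apart by kind: Lrg1 was at -1.55 in the globin-rich and 0.10 in the globin-poor libraries, and G0s2 at -0.61 and 0.39.

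Granule genes were detected unevenly between the kinds. Primary granule enzymes (Mpo, Elane, Prtn3, Ctsg) and the secondary granule genes Ltf, Camp and Ngp, which are made in marrow precursors, were scarce in the globin-rich libraries. Ngp lay at 0.603, 1.90 and 1.49 CPM in WT 01, KO 02 and KO 03, against 122, 62.7 and 58.1 CPM in WT 03, WT 04 and KO 04. Mpo (myeloperoxidase) lay at 3.42 CPM in WT 01 against 1.48 and 0.298 CPM, and at 36.8 and 18.2 CPM in WT 03 and WT 04 against 16.8 CPM in KO 04, at -0.99 ± 0.42. Ltf (lactoferrin) lay at 3.62 CPM against 0.634 and 0.597 CPM, and at 89.5 and 40.8 CPM against 37.7 CPM, at -1.09 ± 0.39. Both were below WT in each kind, but on few counts in the globin-rich libraries, where 3 counts are worth 0.603 to 0.895 CPM. WT 03 was the higher of the WT libraries for both genes in the globin-poor kind, and the gap between WT 03 and WT 04 was wider than that between WT 04 and KO 04. All 4 primary granule genes and all 7 secondary granule members lay below 0, with medians of -0.73 and -0.51. Gelatinase granule genes, made last, had 5 of 5 below 0 and a median of -0.39. Mmp8, the neutrophil collagenase, lay at 29.3 CPM in WT 01 against 13.1 and 25.4 CPM, and at 9.23 and 9.01 CPM in WT 03 and WT 04 against 4.79 CPM, at -0.78 ± 0.31. Mmp9, the gelatinase itself, did not separate the genotypes, with 225 CPM in WT 01 against 226 and 170.3 CPM and a fold change of -0.12 ± 0.19.

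The KO effect on these genes was compared with that in the spleen-labelled libraries, fitted with the same kind term and tested as the difference of the effects over all 12 libraries. The spleen-labelled libraries also fell into kinds: globin took 54.8% to 56.1% of counts in WT 02, WT 04 and KO 03, and 0.846% to 2.95% in WT 01, KO 01 and KO 04. The contrast is thus between labels, and mixed tissue or exchanged samples cannot be told apart from tissue here. In the spleen-labelled libraries the neutrophil list stood higher in KO, with 33 of 35 members above 0 and a median of 0.70. The median of the difference, blood less spleen, was -1.49. Of 19122 genes tested, 1 (0.00523%) passed in edgeR's quasi-likelihood test, and it was Chil3, with a difference of -2.97 ± 0.34 (adjusted p = 0.00319). Before adjustment, 21 of the 35 members had p under 0.05 against 1.52% of all genes. S100a8 stood at 1.30 in spleen and differed by -2.01 ± 0.40, and Lcn2, which sequesters bacterial iron carriers, stood at 1.53 and differed by -2.51 ± 0.55; neither passed adjustment. The spleen values rest in part on 1 library. Before TMM scaling, spleen KO 03 held 7017 CPM of neutrophil genes against 1558 and 1393 CPM in the globin-rich WT 02 and WT 04. In the globin-poor kind WT 01 held 1276 CPM against 1221 and 1635 CPM in KO 01 and KO 04, so the genotypes overlapped. Without spleen KO 03 the median difference was -0.86, with 30 of 35 below 0. The spleen effect then rests on WT 01 against KO 01 and KO 04. Chil3 still passed, at -3.03 ± 0.46 (adjusted p = 0.00129), and Ltf passed as well, at -3.16. Chil3 missed the threshold without blood WT 01 (adjusted p = 0.0916), without blood KO 04 (adjusted p = 0.111) and with no kind term (adjusted p = 0.927).

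**Figure D3:**
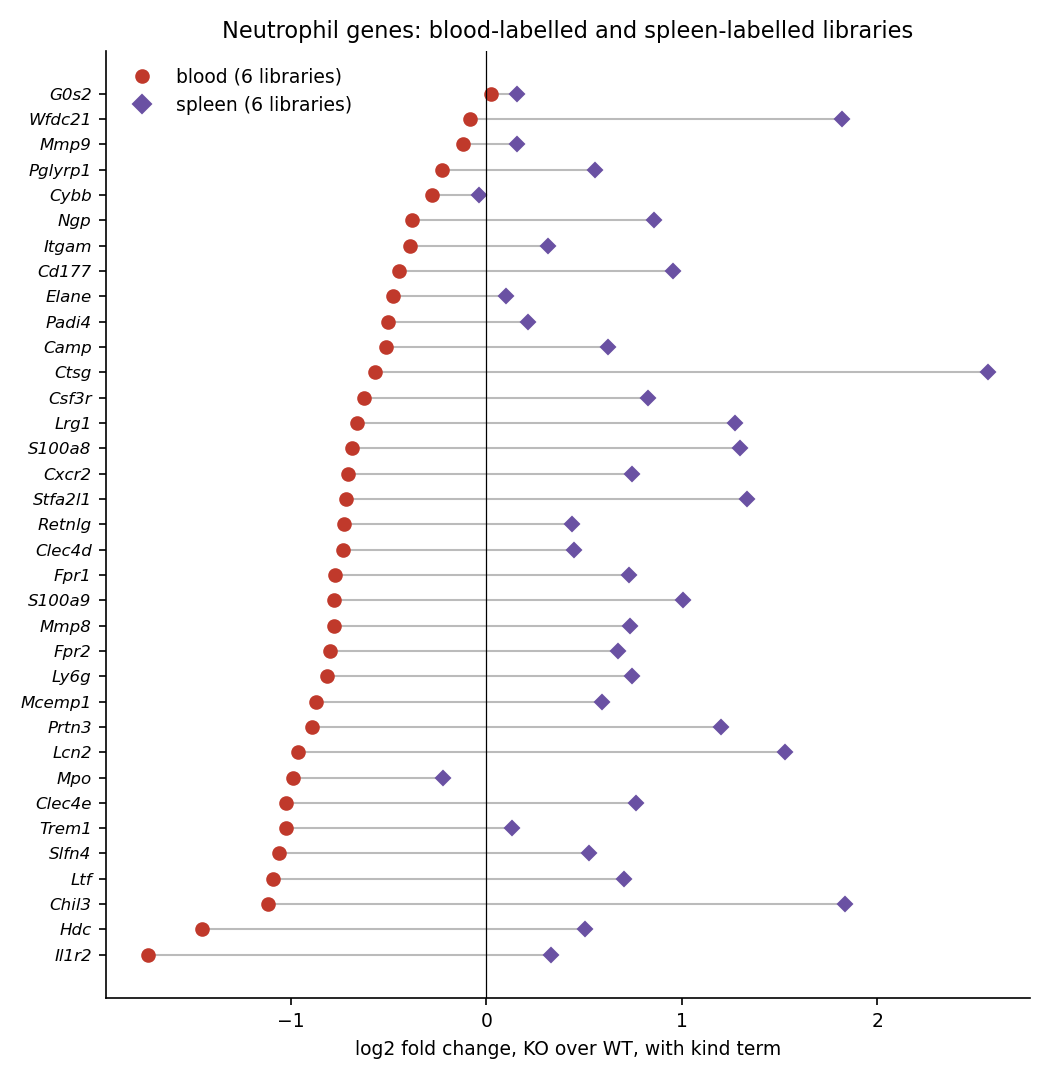
Log2 fold change of KO over WT for each of the 35 neutrophil members in the 6 blood-labelled (circles) and 6 spleen-labelled (diamonds) libraries, each fitted with the kind term. Blood values lie left of 0 for 34 members and spleen values right of 0 for 33, and Chil3 was the only member whose difference passed the test.

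Other myeloid lists stood closer to 0. Of 27 monocyte genes, 20 lay below 0 and the median was -0.30, with 10 lower and 2 higher without overlap in both kinds (11.3% and 10.3% of all genes). The median was -0.15 in the globin-rich and -0.28 in the globin-poor libraries. All 7 genes of classical monocytes lay below 0 with a median of -0.62, as did all 12 genes shared by the subsets, with a median of -0.33. Of 8 genes of nonclassical monocytes 7 lay above 0, with a median of 0.16, and the difference between the subsets was not tested. Chil3 is a member of both lists. Among the other classical genes, Fn1 (fibronectin) lay at 339.9 CPM in WT 01 against 139.7 and 195 CPM in KO 02 and KO 03, and at 56.2 and 71.7 CPM in WT 03 and WT 04 against 54.8 CPM in KO 04. Vcan, a matrix proteoglycan, lay at 23.5 CPM against 2.11 and 6.56 CPM in the globin-rich kind and at 0.852 and 1.06 against 0.745 CPM in the other. Both differences were thus larger in the globin-rich libraries, -1.02 against -0.22 for Fn1 and -2.48 against -0.36 for Vcan. Ccr2, the receptor that brings classical monocytes out of the marrow, stood at -0.35 ± 0.24. Summed over the list, KO 03 at 4883 CPM was level with WT 01 at 4847 CPM, so the genotypes overlapped.

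Eosinophil and basophil genes were mostly scarce. Of 24 members 20 passed the filter on low counts, 18 of those lay below 0 and the median was -0.22. Ccr3, the eotaxin receptor of eosinophils, lay at 8.84 CPM in WT 01 against 6.76 and 2.98 CPM, and at 14.4 and 14.5 CPM in WT 03 and WT 04 against 7.06 CPM in KO 04. Its KO libraries lay below WT in both kinds, at -0.94 ± 0.36. Epx, the eosinophil peroxidase, was at 1.01 CPM or less in every library, which at these depths does not allow a comparison.

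Many platelet genes differed between the library kinds. In the adhesion list, the lowest globin-rich library lay above the highest globin-poor one in 15 of 16 members. The gap was at least 10-fold in 8 of them. For granule and signalling members the same held in 18 of 23 and 22 of 35, at least 10-fold in 8 and 4. The share over all tested genes was not counted, so whether this is particular to platelet genes was not tested. For 16 receptors of adhesion and aggregation, all 16 lay below 0 with a median of -0.25, and 3 lay lower without overlap in both kinds (11.3% of all genes). The medians were -0.09 in the globin-rich and -0.36 in the globin-poor libraries. Itga2b, the integrin chain that binds fibrinogen with Itgb3, lay at 1294 CPM in WT 01 against 1373 and 1187 CPM in KO 02 and KO 03. WT 03 and WT 04 held 83.0 and 49.0 CPM, KO 04 47.3 CPM. The globin-rich KO values lay on both sides of WT 01, and the fold change was -0.25 ± 0.27. Gp9, of the von Willebrand factor receptor, lay at 335 against 319.7 and 313 CPM and at 22.8 and 15.5 against 18.0 CPM, at -0.09 ± 0.21. Cd9, a tetraspanin of the platelet surface, had the smallest p of the list and no overlap, with 877 against 737 and 589 CPM and with 33.1 and 33.3 against 24.5 CPM. Its fold change was -0.42 ± 0.22. With genotype as the only term, the median of these 16 genes was 0.72, since 2 of 3 KO libraries and 1 of 3 WT libraries are globin-rich.

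For platelet granule cargo and cytoskeleton, 20 of 23 members lay below 0, the median was -0.25 and 8 lay lower without overlap in both kinds (11.3% of all genes). The medians were -0.13 in the globin-rich and -0.19 in the globin-poor libraries. Pf4 (platelet factor 4) lay at 489 CPM in WT 01 against 451 and 444 CPM, and at 56.9 and 29.2 CPM in WT 03 and WT 04 against 26.6 CPM in KO 04, at -0.41 ± 0.27. Ppbp, the precursor of a neutrophil-attracting platelet chemokine, lay at 1254 against 1284 and 1048 CPM and at 71.9 and 62.7 against 38.9 CPM, at -0.44 ± 0.26. The globin-rich libraries overlapped for Ppbp. App, whose protein is stored in platelet granules but which stromal cells also express, had the smallest p. It lay at 59.5 CPM in WT 01 against 26.4 and 30.1 CPM, and at 41.8 and 73.6 CPM in WT 03 and WT 04 against 39.2 CPM, at -0.80 ± 0.24. Mmrn1 (multimerin) and F5 (coagulation factor V) stood at -0.60 ± 0.26 and -0.62 ± 0.28.

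Platelet signalling genes were split. Of 34 tested of 35, 9 lay above 0 and 25 below, with a median of -0.15 in the fit of both, 0.00 in the globin-rich and -0.15 in the globin-poor libraries. Without overlap in both kinds, 4 were higher and 7 lower, against 10.3% and 11.3% of all genes, so the higher share was near the background. Tbxa2r, the thromboxane receptor, was the member with the smallest p and stood higher. It lay at 13.5 CPM in WT 01 against 20.7 and 23.0 CPM in KO 02 and KO 03, and at 21.8 and 17.8 CPM against 24.4 CPM, at 0.48 ± 0.24. P2ry12, the receptor for ADP that clopidogrel blocks, lay at 151 against 126 and 87.1 CPM and at 1.33 and 3.45 against 3.23 CPM, at -0.11 ± 0.32. Src, a kinase downstream of the integrin, stood at -0.60 ± 0.33 with 4.18 to 13.04 CPM in all libraries. None of the 3 platelet lists had a called gene, and 3 members in all had p under 0.05 before adjustment.

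**Figure D4:**
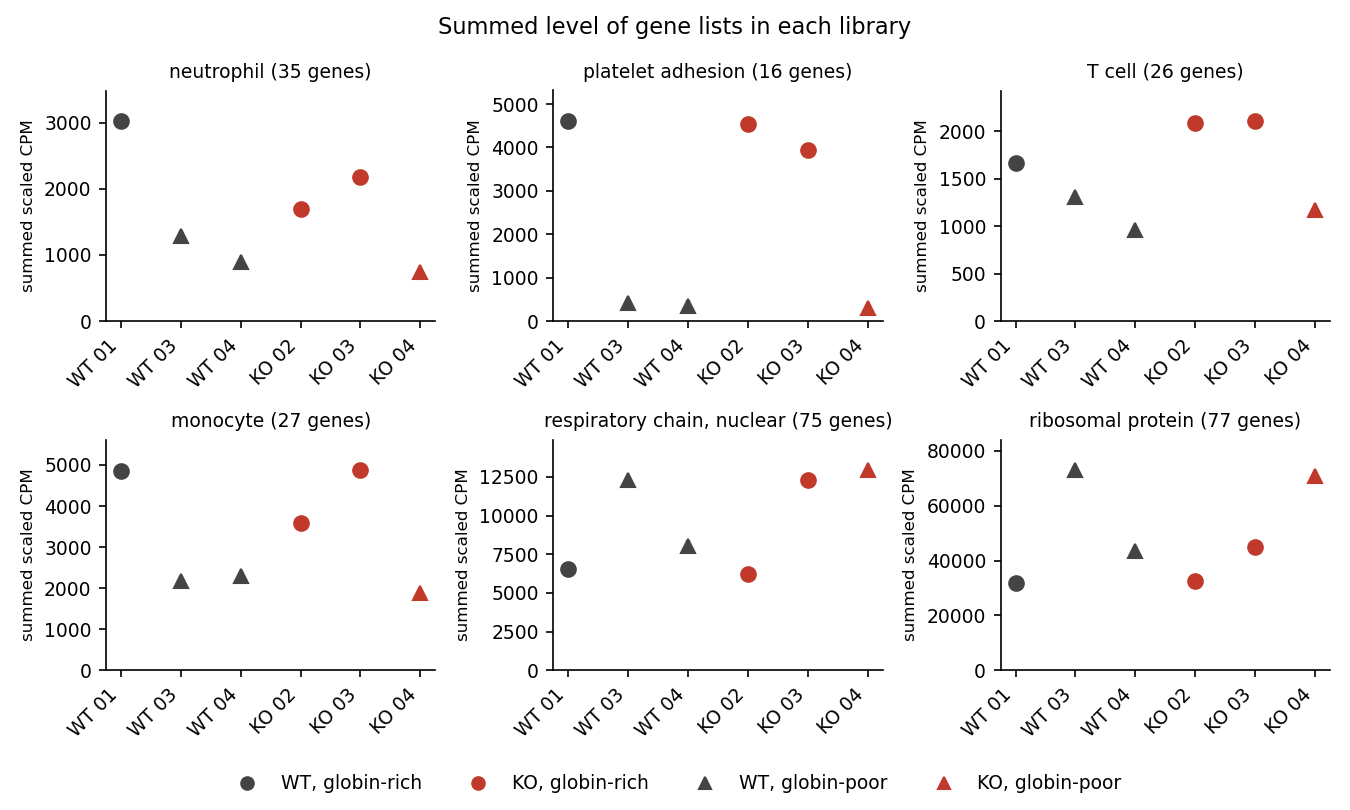
Summed scaled CPM of 6 gene lists in each library (linear axes from 0), WT in dark grey and KO in red, circles globin-rich and triangles globin-poor. Neutrophil sums are lower in KO within each kind (3030 against 1696 and 2176 CPM, and 1278 and 898 against 736 CPM), while platelet adhesion sums follow kind, and respiratory chain and ribosomal protein sums are high in WT 03, KO 04 and, for the former, KO 03.

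For T cells 22 of 26 lay above 0 (48.2% of all tested genes) with a median of 0.20, and 3 were higher without overlap in both kinds (10.3% of all genes). The median was 0.35 in the globin-rich and 0.0045 in the globin-poor libraries, and -0.019 with WT 01 left out, so the direction rested on that library. Cd3e, of the T cell receptor complex, lay at 51.7 CPM in WT 01 against 79.2 and 71.9 CPM in KO 02 and KO 03, and at 45.7 and 33.1 CPM in WT 03 and WT 04 against 47.4 CPM in KO 04, at 0.40 ± 0.20. Ccr7, which guides naive T cells to lymph nodes, lay at 196 against 213 and 241 CPM and at 80.5 and 57.8 against 102 CPM, at 0.39 ± 0.20. KO 02 and KO 03 lay above WT 01 in 24 and 25 members, but KO 04 lay below WT 03 in 21. B cell genes had a median of 0.08 and natural killer and cytotoxic genes one of 0.07. B cell medians were 0.23 in the globin-rich and -0.11 in the globin-poor libraries, and natural killer medians 0.26 and -0.21. Under scaling by library size alone both turned, to -0.075 and -0.097.

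Erythroid genes lay above 0 in 35 of 39, with a median of 0.17, 0.41 in the globin-rich and 0.04 in the globin-poor libraries. Alas2, which starts haem synthesis in red cells, lay at 61186 CPM in WT 01, 61633 CPM in KO 02 and 83113 CPM in KO 03, and at 793, 994 and 804 CPM in WT 03, WT 04 and KO 04. KO 03 was the highest, KO 02 was level with WT 01, and the fold change was 0.05 ± 0.37.

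Genes of the respiratory chain encoded in the nucleus had the highest median. Of 75 genes, 73 lay above 0 (48.2% of all genes), the median was 0.40 and 22 were higher without overlap in both kinds (10.3% of all genes). The median was 0.45 in the globin-rich and 0.35 in the globin-poor libraries, and -0.048 with genotype as the only term. Atp5o, a subunit of ATP synthase, lay at 23.5 CPM in WT 01 against 30.4 and 52.2 CPM, and at 146 and 97.4 CPM in WT 03 and WT 04 against 167 CPM, at 0.61 ± 0.25. Uqcr10 of complex III stood at 0.57 ± 0.23 and Ndufc2 of complex I at 0.59 ± 0.23. The libraries of a kind did not move together. KO 03 lay above WT 01 in 73 of 75 members but KO 02 in 33, and KO 04 lay above WT 04 in 75 but above WT 03 in 49. Summed levels were 6539 CPM in WT 01, 6243 CPM in KO 02 and 12278 CPM in KO 03, and 12324, 8010 and 12966 CPM in WT 03, WT 04 and KO 04. The median was 0.20 without KO 03 and 0.24 without WT 04. The SD between replicates of the list's median log2 level, 0.47 from the same library pairs as for the neutrophil list, exceeded the difference.

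Of 76 tested of 77 ribosomal protein genes, 74 lay above 0 and the median was 0.26 in the fit of both, 0.26 in the globin-rich and 0.28 in the globin-poor libraries, with a replicate SD of 0.37. KO 02 and KO 03 lay above WT 01 in 53 and 73 of 77. KO 04 lay above WT 04 in 75 but below WT 03 in 51. Without WT 04 the median was 0.10, and with genotype as the only term it was -0.068. Genes that NM1 is known to work with had a median of 0.11, 0.10 in the globin-rich and 0.14 in the globin-poor libraries, but -0.028 under scaling by library size alone. In that list 14 of 15 genes of RNA polymerase I and its factors lay above 0 with a median of 0.18. Ash2l, of a histone methyltransferase complex, had the smallest p of that list, at 0.44 ± 0.21, with 19.5 CPM in WT 01 against 28.1 and 28.04 CPM and with 57.3 and 41.8 CPM against 64.1 CPM. Cell cycle genes lay above 0 in 31 of 38, with a median of 0.21 and 12 higher without overlap in both kinds (10.3% of all genes). The median was 0.11 in the globin-rich and 0.29 in the globin-poor libraries, and -0.61 with genotype as the only term. They were scarce in the globin-rich libraries, where the sum was 1582 to 3160 CPM, against 7933 to 10343 CPM in the globin-poor ones.

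Interferon-stimulated genes had a median of -0.24 over 33 genes, with 26 below 0. It was 0.06 in the globin-rich and -0.44 in the globin-poor libraries. KO 04 lay below WT 04 in 31 members and below WT 03 in 27. Without overlap in both kinds, 9 of the 33 were lower and 0 higher, against 11.3% and 10.3% of all genes. Ifit3, an antiviral effector, lay at 16.9 CPM in WT 01 against 10.6 and 6.56 CPM, and at 12.7 and 11.9 CPM against 7.02 CPM, at -0.88 ± 0.31. Oasl2 stood at -0.51 ± 0.20. Whether the kinds differ for the list was not tested.

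Medians of the lists for spleen tissue lay below 0 in both kinds. Of 20 tested red pulp macrophage genes 14 lay below 0 with a median of -0.30, -0.18 in the globin-rich and -0.34 in the globin-poor libraries. Within kinds, 9 of the 20 lay above 0 in the globin-rich and 3 in the globin-poor libraries. Their sum overlapped between the genotypes in both kinds. It was 15634 CPM in WT 01 against 12329 and 24218 CPM in KO 02 and KO 03, and 5252 and 4130 CPM in WT 03 and WT 04 against 4925 CPM in KO 04. The red pulp macrophage genes Vcam1, Spic and Cd5l were at 2.68 CPM or less in the globin-rich libraries. The sum there thus came from other members and is no measure of spleen tissue. Of 30 tested stromal genes 27 lay below 0 with a median of -0.38, -0.85 in the globin-rich and -0.24 in the globin-poor libraries. The globin-rich median rests on very few reads. Only 14 of the 30 had a count in every library, and Col1a1 had 2, 4 and 2 reads in WT 01, KO 02 and KO 03. The stromal sum was 2098 and 1921 CPM in WT 03 and WT 04 against 1700.5 CPM in KO 04, and 90.7 CPM in WT 01 against 65.5 and 30.7 CPM in KO 02 and KO 03. Immunoglobulin constant genes showed the widest gaps between single libraries. The antibody heavy chain gene Ighg2c lay at 83.5 and 38.0 CPM in the globin-poor WT libraries and at 184 CPM in KO 04, while Ighg1 lay at 38.9 and 30.9 CPM against 9.40 CPM. Both were at 2.32 CPM or less in the globin-rich libraries, so their fold changes of 1.54 ± 0.35 and -1.45 ± 0.58 compare KO 04 with the 2 WT libraries of its kind. The part of tissue make-up in the neutrophil difference was not tested.

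Most of the other lists lay close to 0. Plasma cell genes had 10 of 21 above 0 and a median of -0.04, and genes of dendritic cells and antigen presentation 11 of 19 and 0.03. Inflammatory mediators had 9 of 27 tested above 0 and a median of -0.07, p53 targets 8 of 17 and -0.04, heat shock genes 10 of 16 and 0.02, and immediate early genes 15 of 23 and 0.13. Genes of mitochondrial biogenesis and glycolysis had 21 of 29 above 0 and a median of 0.08, and the respiratory chain genes of the mitochondrial genome 10 of 12 and 0.07. Histone genes stood farther from 0, with 30 of 39 tested above 0 and a median of 0.21. Their median was 0.198 in the globin-rich and 0.201 in the globin-poor libraries. Under scaling by library size alone the median turned to -0.11 for dendritic cell, -0.11 for heat shock, -0.032 for immediate early, -0.079 for mitochondrial biogenesis and -0.085 for mitochondrial genome genes.

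**Figure D5:**
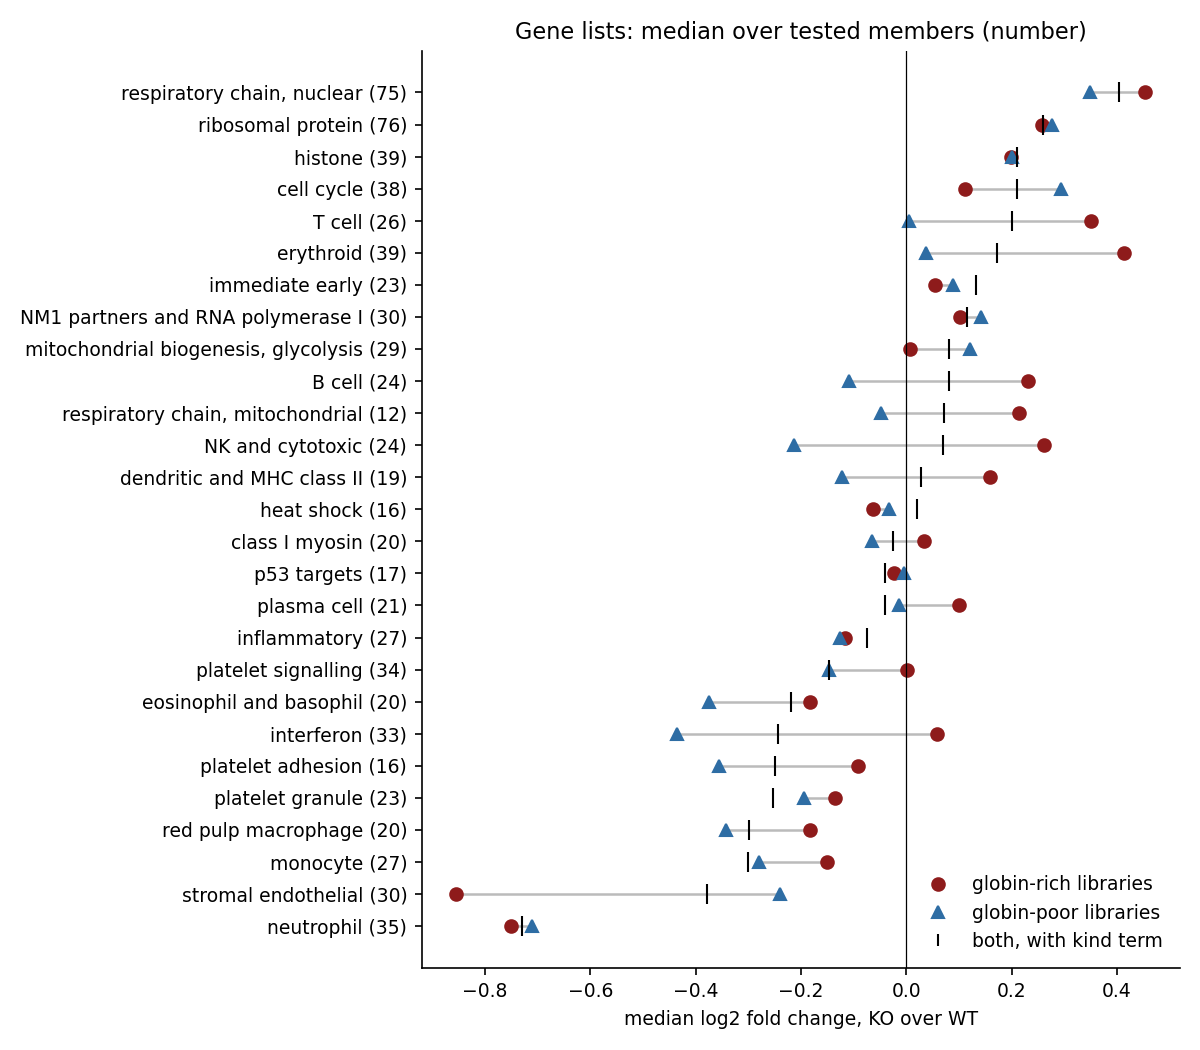
Median log2 fold change of KO over WT over the tested members of 27 gene lists, in the globin-rich (circles) and globin-poor (triangles) libraries and in the fit of both with the kind term (bars), ordered by the last. The neutrophil list is lowest (-0.73) with both kinds close together (-0.75 and -0.71), and several other lists change sign between the kinds.

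Single genes were ranked by p among those of at least 5 CPM whose KO libraries lay on one side of WT in each kind, with immunoglobulin and T cell receptor segments, gene models, pseudogenes and mitochondrial genes left out. The segment Igkv12-41, left out by that rule, stood at 2.09 ± 0.48 with a p below that of Cep85, and Igkv3-4 at 1.58 ± 0.41. Both were highest in KO 04, at 23.1 and 40.4 CPM. Of the ranked genes in no list, Rab44, a large GTPase of granulocytes and mast cells, lay at 45.6 CPM in WT 01 against 18.0 and 25.4 CPM in KO 02 and KO 03, and at 7.15 and 6.50 CPM in WT 03 and WT 04 against 3.65 CPM in KO 04, at -0.99 ± 0.26. Ppp1r3d, a glycogen-targeting subunit of protein phosphatase 1, lay at 24.7 against 3.80 and 2.98 CPM and at 2.56 and 3.29 against 1.49 CPM, at -1.88 ± 0.47. Myo15b, an unconventional myosin gene, lay at 28.1 against 5.49 and 3.58 CPM in the globin-rich kind and at 0.630 and 0.393 against 0.319 CPM in the other, at -1.87 ± 0.52. The last 2 were thus set mainly by a high WT 01. Tbc1d9 and Fam129a stood at -1.23 ± 0.35 and -0.86 ± 0.25.

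Among the ranked genes higher in KO, Cep85, a centrosomal protein, had the smallest p. It lay at 206 CPM in WT 01 against 385 and 659 CPM in KO 02 and KO 03, and at 674 and 536 CPM in WT 03 and WT 04 against 1097 CPM in KO 04. The fold change was 1.10 ± 0.28 (unadjusted p = 0.00157 in edgeR's quasi-likelihood test). Pcx, the mitochondrial pyruvate carboxylase that refills the citric acid cycle, lay at 8.04 against 32.1 and 50.1 CPM and at 22.9 and 23.9 against 30.5 CPM, at 1.21 ± 0.39. Its difference was 2.35 in the globin-rich and 0.38 in the globin-poor libraries. Slc11a2, the iron transporter DMT1, stood at 0.68 ± 0.25, Suv39h1, a histone H3 methyltransferase, at 0.62 ± 0.23, and the purine synthesis enzyme Pfas at 0.55 ± 0.21. C1qtnf12, Prmt7, Tacc3 and Tsta3 lay between 0.55 and 0.77.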

How the data were processed

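The authors' deposited raw read counts per gene of 6 blood-labelled and 6 spleen-labelled mouse libraries were used. Per the submitters' processing notes, the tools were HTSeq, HISAT2 2.0.4, Trimmomatic 0.36, SAMtools 0.1.19 and FastQC, and the build was GRCm38/mm10. The annotation release and strand setting are not given in the sources used here, so antisense and overlapping genes cannot be told apart. The NEBNext Ultra II kit and NextSeq 500/550 stand in the labels' protocols.

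Globin genes were taken out, counts scaled by TMM, genes with low counts filtered with edgeR's filterByExpr, and genotype plus library kind fitted with edgeR 4.0.16 (quasi-likelihood test, 3 residual degrees of freedom, Benjamini-Hochberg adjustment, threshold 0.05). Effects within kinds, and blood less spleen over all 12 libraries, were interaction terms. A value after ± is an SE on the log2 scale unless marked SD. DESeq2 1.42.0, limma 3.58.1 and other settings were alternatives. Scripts were tested on simulated counts. Intervals and floors (3 counts) cover counting error only. No 2 libraries agreed within sampling noise (chi-square per degree of freedom at least 7.82).

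Members and lists were chosen with earlier results of these data known. Genes were named by p within each list and direction (up to 10 per direction at 5 CPM or more, up to 5 or 3 per list), and 29 genes with a fold change were added after their values were seen.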

Additional observations from a re-analysis of the deposited data

Results flagged for a closer look

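The KO effect on Chil3 differed between the blood-labelled and spleen-labelled libraries, of which 3 each carry a globin share unlike their label's other libraries. Blood less spleen was -2.97 on the log2 scale, with KO below WT in both kinds of blood-labelled library and a log2 fold change of 1.84 ± 0.24 in spleen. In spleen, before TMM scaling, the globin-poor WT 01 held 11.1 CPM against 31.3 and 51.2 CPM in KO 01 and KO 04. The globin-rich WT 02 and WT 04 held 64.6 and 71.8 CPM against 364 CPM in KO 03. The genotypes did not overlap within a kind and overlapped across kinds.

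The KO effect on Gm26917, a predicted gene model, differed between library kinds, by -4.33 on the log2 scale (adjusted p = 0.0289, edgeR's quasi-likelihood test). It lay at 2567 CPM in WT 01 against 221 and 161 CPM in KO 02 and KO 03, and at 419 and 343 CPM in WT 03 and WT 04 against 572 CPM in KO 04. The globin-rich value rests on the single library WT 01.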

How the results depend on the processing

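The neutrophil median kept its sign under every alternative run on it. It lay between -0.89 and -0.69 in the fits that kept the kind term and all libraries, between -0.79 and -0.71 with 1 library left out, and at -0.37 with genotype alone. Called genes numbered 0 in the blood fit and 12 without the filter on low counts, 4 in the globin-rich and 27 in the globin-poor libraries alone, and 0 to 4 with 1 library left out (4 without WT 01, 1 without KO 04). The lone library on 1 side is then assumed to vary like the others. The neutrophil members among the 12 were Hdc, Chil3 and Slfn4. The others were the pancreas genes Clps, Sycn, Cpb1 and Cel, immunoglobulin genes such as Ighg2c, and Cep85 and Pcx. In the globin-poor libraries alone, Hdc was the neutrophil member called. The other genes called there included the pancreas genes Ctrl and Sycn, which were highest in KO 04, and immunoglobulin genes. The blood less spleen difference called 1 gene, 2 with limma-voom, 26 with DESeq2 (24 of them with an estimate past 15 on the log2 scale), 0 with no kind term, 3 without spleen KO 03 and 0 to 2 with 1 blood library left out. Scaling by library size alone moved the median of all genes to -0.16, and the platelet granule and signalling medians to -0.38 and -0.28; the signs of Alas2 -0.13, G0s2 -0.11, Myo1g -0.074 turned.

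With genotype alone, the medians of the platelet adhesion, granule and signalling lists were 0.72, 0.46 and 0.30, and that of the myosin list 0.11. List medians that also turned with genotype alone were dendritic cell -0.11, inflammatory 0.10, heat shock -0.47, cell cycle -0.61, NM1 partner -0.033, mitochondrial biogenesis -0.028, respiratory chain -0.048, ribosomal protein -0.068. The log2 fold changes that turned were Atp5o -0.078, C1qtnf12 -0.33, Ccr2 0.49, Cd9 0.50, Csf3r 0.38, Cxcr2 0.087, F5 0.70, G0s2 -0.41, Gp9 0.79, Itga2b 0.86, Itgb3 0.70, Mmp9 0.64, Mmrn1 0.59, Myo1c 0.31, Myo1f 0.38, Ndufc2 -0.15, Oasl2 0.27, P2ry12 0.46, Padi4 0.24, Pf4 0.67, Ppbp 0.76, Slc11a2 -0.36, Suv39h1 -0.13, Tacc3 -0.50. In the globin-rich libraries alone the platelet granule and signalling medians were -0.15 and -0.0087, the interferon and myosin medians 0.040 and 0.014, and the turned genes G0s2 -0.65, Myo1c 0.19. In the globin-poor libraries alone they were Alas2 -0.18, Lrg1 0.081, Myo1g -0.13, P2ry12 0.40. List medians that also turned in the globin-poor libraries alone were T cell -0.018, natural killer -0.25, B cell -0.13, dendritic cell -0.15, heat shock -0.059, mitochondrial genome -0.073. List medians that also turned under library-size scaling were natural killer -0.10, B cell -0.075, dendritic cell -0.11, immediate early -0.032, heat shock -0.11, NM1 partner -0.028, mitochondrial biogenesis -0.079, mitochondrial genome -0.085.

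Numbers 03 and 04 occur in both genotypes, but the labels name no pairs, so the numbers were not taken as a pairing. The residuals of the same-numbered libraries correlated at 0.38 and -0.56. With 3 residual degrees of freedom the residuals are tied to each other by the fit, so these values cannot decide whether the numbers are pairs. A fixed replicate block beside the kind term leaves no residual degrees of freedom. The replicate block without the kind term gave medians of -0.053 for neutrophil, 1.74, 0.76 and 0.39 for platelet adhesion, granule and signalling, -0.15 for respiratory chain, 0.21 for myosin and -0.042 for histone genes. It sets KO 03 against WT 03, which are of different kinds, and KO 04 against WT 04, while WT 01 and KO 02 add nothing. List medians that also turned under this block were monocyte 0.38, dendritic cell -0.34, heat shock -0.94, cell cycle -1.81, NM1 partner -0.22, mitochondrial biogenesis -0.10, ribosomal protein -0.20. Under it these genes turned: Ash2l -0.23, Atp5o -0.37, C1qtnf12 -2.51, Ccr2 1.501, Cd9 1.83, Chil3 0.12, Clec4d 0.54, Clec4e 0.50, Csf3r 1.48, Cxcr2 1.03, F5 2.10, Fam129a 0.012, Fn1 0.67, G0s2 -1.03, Gp9 1.97, Ighg2c -1.94, Itga2b 1.86, Itgb3 1.26, Mmp8 0.24, Mmp9 1.496, Mmrn1 1.78, Myo15b 1.09, Myo1c 0.24, Myo1f 0.86, Ndufc2 -0.60, Oasl2 0.73, P2ry12 2.91, Padi4 0.84, Pf4 1.39, Pfas -0.26, Ppbp 1.56, Prmt7 -0.11, Rab44 0.47, S100a8 0.32, Slc11a2 -0.97, Slfn4 1.00, Suv39h1 -0.72, Tacc3 -1.76, Uqcr10 -0.11, Vcan 1.18. In the blood less spleen comparison, the random effect was another block, which joined blood and spleen libraries of the same genotype and number. With the kind term it called 2 genes, Chil3 and Ighg1. The estimated correlation within these blocks was 0.46, against 0.018 for same-numbered blood libraries. The main comparison carried no such block, and the labels do not say whether such libraries share a mouse.

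With 1 library left out, the platelet granule median ranged from -0.37 to -0.12 and the signalling median from -0.17 to 0.017. The signs of others turned as well when 1 library was left out: the interferon list ranged from -0.46 to 0.069 (turned without KO 04), the myosin list ranged from -0.092 to 0.044 (turned without KO 03 and KO 04), Alas2 ranged from -0.18 to 0.25 (turned without WT 01 and WT 03 and KO 03), G0s2 ranged from -0.60 to 0.37 (turned without WT 04 and KO 04), Gp9 ranged from -0.21 to 0.017 (turned without WT 03), Ighg1 ranged from -2.00 to 0.13 (turned without KO 04), Lrg1 ranged from -1.54 to 0.080 (turned without WT 01), Myo1c ranged from -0.27 to 0.22 (turned without WT 04 and KO 04), Myo1g ranged from -0.13 to 0.30 (turned without WT 01), P2ry12 ranged from -0.49 to 0.39 (turned without WT 01 and WT 04 and KO 03). Other list medians whose sign turned with 1 library left out ranged from -0.019 to 0.36 for T cell, from -0.25 to 0.24 for natural killer, from -0.13 to 0.24 for B cell, from -0.030 to 0.11 for plasma cell, from -0.15 to 0.17 for dendritic cell, from -0.060 to 0.033 for heat shock, from -0.031 to 0.0043 for p53, from -0.075 to 0.23 for mitochondrial genome genes, the T cell one turning without WT 01. Those of the respiratory chain and ribosomal protein lists kept their sign, at 0.20 to 0.55 and 0.10 to 0.41. Small values turned with no filter (Myo1c 0.0028), a filter of 5 CPM (Alas2 -0.0066, G0s2 -0.010), DESeq2 (G0s2 -0.031), the continuous globin share (G0s2 -0.052) and 1 fit of all libraries (G0s2 -0.010). The cause of these changes was not tested. With 3 residual degrees of freedom and 1 library on 1 side of each kind, small differences were not detectable, and in the globin-rich libraries 3 counts are worth 0.603 to 0.895 CPM.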
